A study of Sus scrofa domesticus with 4 samples.

Results

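Transcripts of 5 chaperone and unfolded protein response genes, HSP90B1, HSPA5, HSP90AA1, HSPA8 and ATF4, were followed in the anterior pituitary of early-pregnant and cyclic gilts. Their probes were taken by the RefSeq accession that the array files give for each probe, without its version, matched to the NCBI table of pig genes. Probes were found for 3 of the 5 genes, 20 of the 43603 non-control probes in all: 8 for HSP90B1 (NM_214103), 6 for HSP90AA1 (NM_213973) and 6 for ATF4 (NM_001123078). HSPA5 and HSPA8 had 0 probes matched in this way, so neither was detected here and no value is given for either. This covers only probes named by such an accession, 5578 of the 43603, for 2459 genes.

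Each pituitary came from 1 of 8 mature gilts, Large White x Polish Landrace crosses of about 110 kg. The 4 pregnant gilts had been bred naturally and were collected on days 12 to 13 of pregnancy, with conceptuses present, and the 4 cyclic gilts on days 12 to 13 of the estrous cycle, counted from the onset of estrus. Each of 4 two-colour Agilent arrays held 825 ng of labelled cRNA from 1 pregnant gilt and 825 ng from 1 cyclic gilt. By the label of each sample, the pregnant gilt was in Cy3 on arrays 1 and 3 and in Cy5 on arrays 2 and 4. The labels name no treatment, and all 8 animals are of the same cross. The tissue is a whole lobe, in which fewer cells of a type and less RNA per cell cannot be told apart.

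Secretory cells of the anterior pituitary pass large amounts of hormone precursor through the endoplasmic reticulum (ER), where chaperones bind the nascent chains until they are folded. When unfolded chains accumulate, the sensors IRE1, PERK and ATF6 start the unfolded protein response: IRE1 splices the XBP1 mRNA, ATF6 is cleaved to a transcription factor, and PERK slows translation while favouring that of ATF4. ATF4 is therefore controlled to a large part in translation, which an mRNA array does not read. HSP90B1 (GRP94, or endoplasmin) and HSPA5 (BiP) are the HSP90 and HSP70 proteins of the ER, while HSP90AA1 and HSPA8 (HSC70) are their cytosolic relatives. HSP90AA1 is the stress-inducible alpha form of cytosolic HSP90, a chaperone whose clients include steroid receptors and kinases. HSPA8 is a constitutive member of the HSP70 family.

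Pregnant over cyclic ratios are given as log2, so that a negative value means less signal in the pregnant gilt of that array, and levels as log2 intensity after normalisation. The level of a probe depends on its sequence as well as on its transcript, so no level is set against that of another probe. Testing required a signal well above background in all 4 gilts of 1 group or the other, and spots free of outlier flags on 3 or 4 arrays. That left 13 member probes, 9 of them on 4 arrays and 4 on 3, among 21627 probes tested. Of the 20 member probes 19 were well above background in all 8 gilts.

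No member probe had a difference that passed the test. Of the 13 tested probes, 0 had an adjusted p under 0.05 in limma with Benjamini-Hochberg adjustment over all probes, where the percentage called was likewise 0, and their adjusted p ran from 0.235 to 0.72. An unadjusted p under 0.05 was found for 3 of the 13, against 18.1% of all tested probes: 2 with a lower fitted value in pregnant gilts (7.62% of all probes) and 1 with a higher one (10.4%). The fitted ratio was negative for 11 of 13 (84.6%; 46.9% of all tested probes), and their median was -0.20 against 0.01 over all probes. Several probes read the same transcript on the same arrays, so these are counts of probes for 3 transcripts and not of independent measurements.

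That share of negative ratios depended on the scaling of the arrays and on the reading of the dyes. With median centring in place of loess, 7 of the 13 member probes were negative. With pregnant RNA in Cy3 on every array, as the labelling protocol can be read, and hence no dye effect in the model, 5 of 13 were. Under median centring the share higher in pregnant gilts among probes with an unadjusted p under 0.05 went from 57.8% to 82.2%. Median centring removes no trend with brightness, and probes within 0.5 log2 units of the brightness of a member probe then had medians from 0.13 to 0.20, against -0.01 to 0.03 under loess. Against those medians, the same 11 of the 13 member probes were lower under loess and under median centring. Taking off the median of probes as bright does much what loess does, so the counts are not independent. Under median centring, A_72_P583616 and A_72_P665834 of HSP90B1 then differed from those medians by only -0.01 and -0.03.

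**Figure D1:**
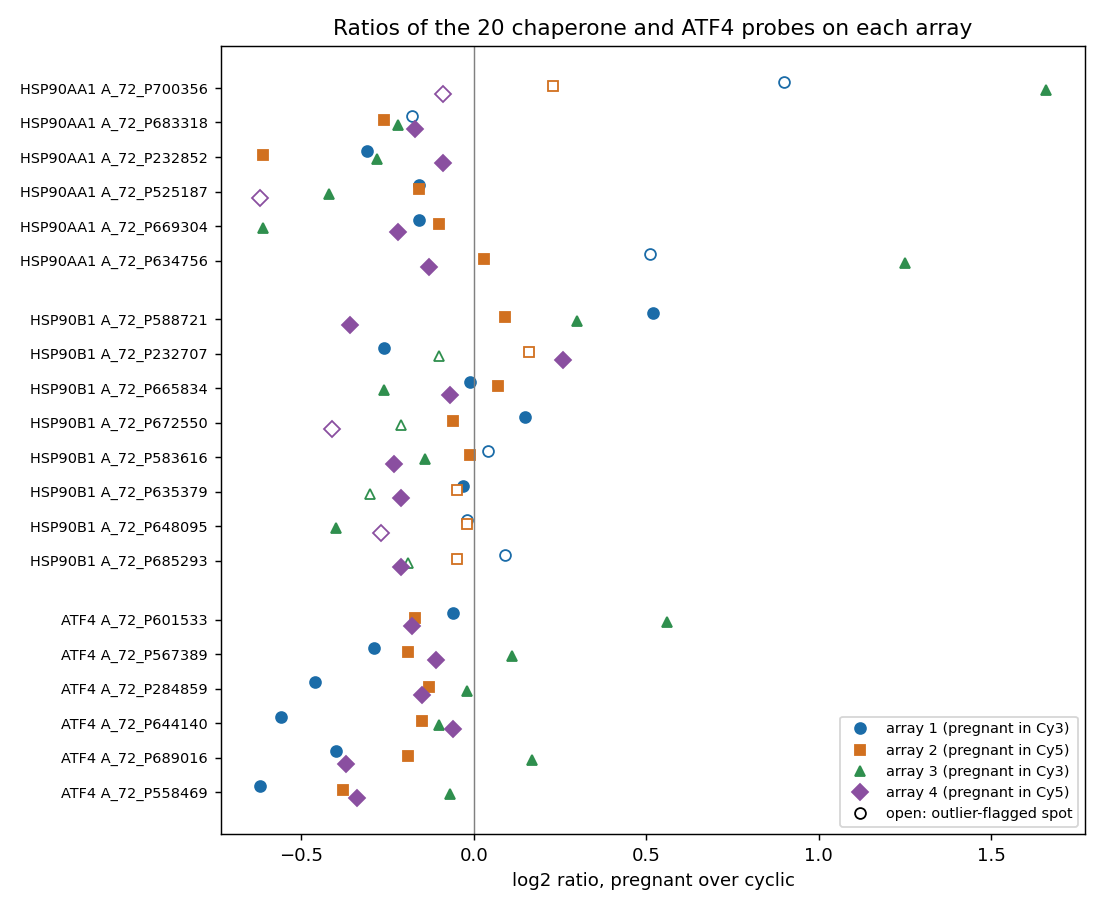
Log2 ratio of pregnant over cyclic (horizontal axis) on each array for the 20 probes, grouped by gene. Symbols and colours stand for the arrays, and open symbols are spots with an outlier flag. A pair of HSP90AA1 probes reaches 1.66 and 1.25 on array 3, while the other 4 lie left of 0 on every array, and the ATF4 probes lie left of 0 on arrays 1, 2 and 4.

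HSP90B1, the ER chaperone, was well above background in every gilt, with ratios near 0 on arrays 1 and 2 by most of its probes. Its brightest tested probe, A_72_P588721, had log2 levels of 15.18, 15.28, 15.11 and 15.19 in the pregnant gilts of arrays 1 to 4, and of 14.66, 15.19, 14.81 and 15.55 in the cyclic gilts. The pregnant gilts lay within the range of the cyclic ones, whose SD was 0.40 against 0.07. The ratios were 0.52, 0.09, 0.30 and -0.36, positive on 3 arrays and negative on array 4. The fitted ratio was 0.14 (SE 0.111, 95% interval -0.15 to 0.43, n = 4 arrays, limma adjusted p = 0.534), with a fitted dye effect of -0.27 in Cy5 over Cy3. It was 0.35 with median centring (unadjusted p = 0.039, limma adjusted p = 0.422), and 0.08, 0.03, 0.20 and 0.25 without replicates 1, 2, 3 and 4 in turn, with limma adjusted p from 0.389 to 0.989 over the alternatives with the labelled dyes.

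The other HSP90B1 probes did not follow the brightest one. A_72_P665834 had ratios of -0.01, 0.07, -0.26 and -0.07, with levels of 13.60, 13.34, 13.45 and 14.16 in pregnant and 13.60, 13.27, 13.71 and 14.24 in cyclic gilts. Pregnant and cyclic gilts overlapped over nearly their whole range, and both gilts of array 4 were the highest of their group. Its fitted ratio was -0.07 (SE 0.0878, 95% interval -0.30 to 0.16, limma adjusted p = 0.72), and 0.12 with median centring. A_72_P583616 had ratios of 0.04, -0.01, -0.14 and -0.23, the first from a spot with an outlier flag. On array 4 both of its levels, 12.34 in the pregnant and 12.58 in the cyclic gilt, were below the 13.80 to 13.98 of the other 6 gilts. Its fitted ratio over 3 arrays was -0.13 (SE 0.114, 95% interval -0.46 to 0.19, limma adjusted p = 0.578), and 0.15 with median centring.

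The remaining 5 HSP90B1 probes had too few spots without an outlier flag to be tested. With those spots kept, A_72_P232707 had ratios of -0.26, 0.16, -0.10 and 0.26, A_72_P672550 had 0.15, -0.06, -0.21 and -0.41, and A_72_P635379 had -0.03, -0.05, -0.30 and -0.21. The last of these was negative on all arrays, and the first changed sign from array to array. A_72_P648095 gave -0.02, -0.02, -0.40 and -0.27, and A_72_P685293 gave 0.09, -0.05, -0.19 and -0.21. All 8 probes were above background in all gilts.

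Seen by array, HSP90B1 was near 0 on arrays 1 and 2 and below 0 on arrays 3 and 4. The median ratio of the 7 probes other than the brightest was -0.01, -0.02, -0.21 and -0.21 on arrays 1 to 4, where the brightest had 0.52, 0.09, 0.30 and -0.36. Those 7 were all negative on array 3, between -0.40 and -0.10. With spots carrying a flag kept, 23 of the 32 spots and 6 of the 8 fitted ratios were negative. The sign for the gene thus rested on which probe stood for it, since the mean over its 3 tested probes was -0.02 against 0.14 for the brightest.

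HSP90AA1, the inducible cytosolic HSP90, was read differently by its probes. For 4 of them pregnant gilts had less signal than their cyclic partners on every array, and for the other pair they had more signal, chiefly on array 3 and, from spots with an outlier flag, on array 1. None of these differences passed the test over all probes. The gene's brightest tested probe, A_72_P683318, had log2 levels of 14.32, 14.58, 14.54 and 14.95 in pregnant gilts and of 14.51, 14.84, 14.76 and 15.12 in cyclic gilts. The groups overlapped, while each pregnant gilt was below the cyclic gilt of its array. Its ratios were -0.18, -0.26, -0.22 and -0.17, of which the first came from a spot with a flag. The fitted ratio over the other 3 arrays was -0.22 (SE 0.105, 95% interval -0.51 to 0.08, limma adjusted p = 0.359), 1.16-fold lower, but 0.12 with median centring.

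A_72_P669304 was the only 1 of the 9 member probes tested on 4 arrays whose groups did not overlap, against 1.03% of all such probes with every pregnant gilt below every cyclic one. Pregnant gilts had levels of 12.10, 12.24, 11.91 and 12.24 and cyclic gilts 12.26, 12.34, 12.51 and 12.46. The ratios of -0.16, -0.10, -0.61 and -0.22 were largest in size on array 3. The fitted ratio was -0.27 (SE 0.106, 95% interval -0.55 to 0, n = 4 arrays, unadjusted p = 0.0521, limma adjusted p = 0.28), 1.21-fold lower. It was -0.10 with median centring and -0.16 without replicate 3. Without replicate 1 it was -0.38 with a limma adjusted p of 0.0476, a setting in which 15.5% of all probes had an adjusted p under 0.05. In that setting array 3 was the only array with pregnant RNA in Cy3. The fit matched it exactly, and the SE held no spread from it. Over all alternatives of A_72_P669304 with the labelled dyes the limma adjusted p ran from 0.0476 to 0.853.

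A_72_P232852 had ratios of -0.31, -0.61, -0.28 and -0.09, with levels of 14.38, 14.14, 14.34 and 12.85 in pregnant and 14.69, 14.75, 14.62 and 12.94 in cyclic gilts. Both gilts of array 4 were far below the rest, and the probe's spot on that array lies in an area with dim spots. Its fitted ratio was -0.32 (SE 0.112, 95% interval -0.62 to -0.03, unadjusted p = 0.0357, limma adjusted p = 0.258), 1.25-fold lower. It was -0.18 with median centring, -0.19 without replicate 2 and -0.45 without replicate 4. A_72_P525187 had ratios of -0.16, -0.16, -0.42 and -0.62, the last from a spot with a flag, and levels of 13.38 to 13.71 in pregnant and 13.54 to 14.15 in cyclic gilts. The groups overlapped here too, and the fitted ratio over 3 arrays was -0.23 (SE 0.118, limma adjusted p = 0.382).

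The pair that stood apart was A_72_P634756 and A_72_P700356. A_72_P634756 had levels of 12.72, 12.17, 12.71 and 11.88 in pregnant gilts and of 12.20, 12.15, 11.46 and 12.01 in cyclic gilts. The ratios were 0.51, 0.03, 1.25 and -0.13, and the groups overlapped, the cyclic gilt of array 3 being the lowest of all 8. The array 1 spot carried a flag, which left array 3 as the only array with pregnant RNA in Cy3. The fit with a dye effect matched array 3 exactly, so its SE came from arrays 2 and 4 and limma's pooling over probes. The SD of the 3 unflagged ratios was 0.75. The fitted ratio was then 0.60 (SE 0.109, 95% interval 0.29 to 0.91, unadjusted p = 0.0061, limma adjusted p = 0.235), 1.51-fold higher, beside a fitted dye effect of -0.65 in Cy5 over Cy3. With that spot kept it was 0.41 (95% interval 0.05 to 0.78, limma adjusted p = 0.243), and with no dye effect in the model 0.38 (limma adjusted p = 0.565). In the fit without replicate 1, which holds the same 3 spots, the limma adjusted p was 0.0194, so that 2 of the 12 member probes tested in that setting passed, in opposite directions, beside 15.5% of all probes. The limma adjusted p of A_72_P634756 ran from 0.0194 to 0.565 over its alternatives with the labelled dyes.

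A_72_P700356 could not be tested, with flags on arrays 1, 2 and 4. Its levels were 15.43, 14.81, 15.68 and 14.53 in pregnant gilts and 14.53, 14.58, 14.02 and 14.62 in cyclic gilts. The ratios of 0.90, 0.23, 1.66 and -0.09 had the order over the arrays of the other probe of the pair, with array 3 first and array 4 last. With those spots kept, the fitted ratio was 0.68 (SE 0.153, 95% interval 0.28 to 1.07, limma adjusted p = 0.215).

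**Figure D2:**
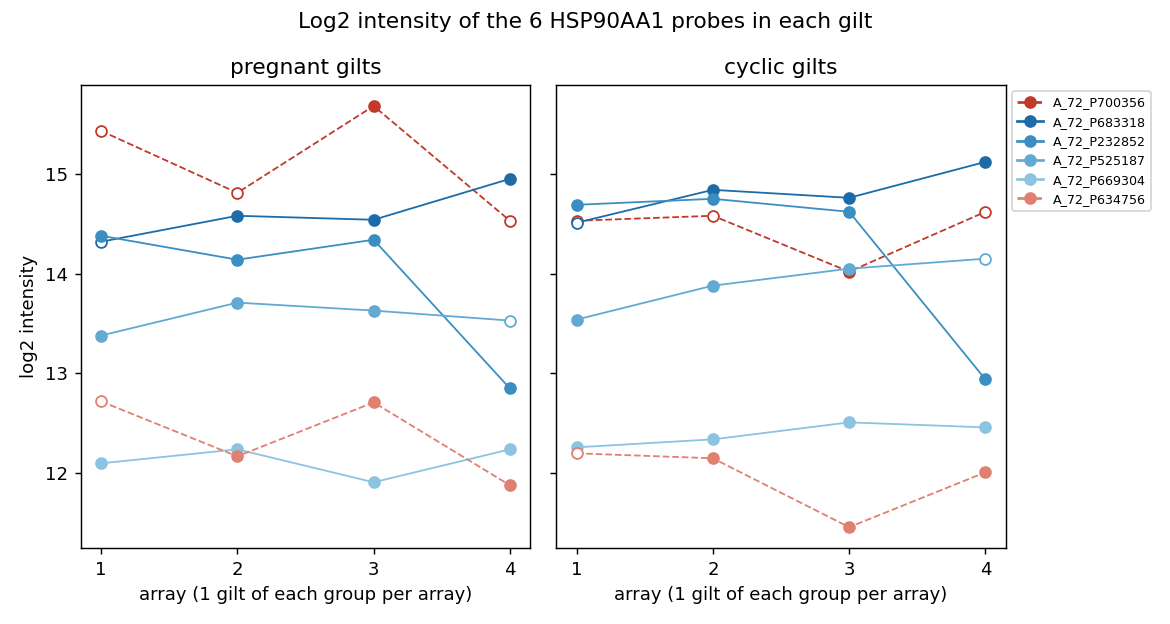
Log2 intensity (vertical axis) of the 6 HSP90AA1 probes in the pregnant gilts (left) and the cyclic gilts (right) of arrays 1 to 4, with 1 line per probe and open points for spots with an outlier flag. The pair A_72_P700356 and A_72_P634756 (dashed) is lowest in the cyclic gilt of array 3, at 14.02 and 11.46, where the other 4 probes (solid) show no such drop, and A_72_P232852 drops on array 4 in both groups; heights of different probes are not comparable.

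The distance between these sets of HSP90AA1 probes differed by array. The mean ratio of the pair was 0.71, 0.13, 1.46 and -0.11 on arrays 1 to 4, and that of the other 4 probes -0.20, -0.29, -0.38 and -0.28. The pair was above the other 4 on every array, by 0.91 and 1.84 on arrays 1 and 3, where the pregnant gilt was in Cy3, and by 0.41 and 0.16 on arrays 2 and 4. All 16 spots of the 4 other probes were negative, flagged spots included. The division into a pair and the rest was made after their values were seen and carries no test. The part of the dye in this distance was not tested, nor whether a probe also binds the close relative HSP90AB1. The mean over the gene's 5 tested probes was -0.09, between the -0.22 of the brightest and 0.

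ATF4, the transcription factor translated under PERK and other eIF2 kinases, had no spot with an outlier flag. Its probes spread by 0.56 on array 1 and 0.66 on array 3, and by 0.26 and 0.30 on arrays 2 and 4. All 6 were negative on arrays 1, 2 and 4, and 3 of 6 on array 3, so that 21 of 24 spots were negative. No probe passed the test. The brightest tested probe, A_72_P567389, had levels of 10.86, 10.74, 11.24 and 11.50 in pregnant gilts and of 11.15, 10.92, 11.13 and 11.61 in cyclic gilts. The groups overlapped, and both gilts of array 4 were the highest of their group. The ratios were -0.29, -0.19, 0.11 and -0.11, and the fitted ratio -0.12 (SE 0.0996, 95% interval -0.38 to 0.14, n = 4 arrays, limma adjusted p = 0.556), but 0.03 with median centring.

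A_72_P558469 had the lowest fitted ratio of all 13 tested member probes. Its levels were 9.26, 9.33, 9.76 and 10.02 in pregnant gilts and 9.88, 9.71, 9.83 and 10.36 in cyclic gilts. Each pregnant gilt was below the cyclic gilt of its array, although the groups overlapped. The ratios were -0.62, -0.38, -0.07 and -0.34, and the fitted ratio was -0.35 (SE 0.116, 95% interval -0.66 to -0.05, unadjusted p = 0.0301, limma adjusted p = 0.251), 1.28-fold lower. Under the other settings with the labelled dyes it ran from -0.49 to -0.22, with limma adjusted p from 0.09 to 0.853.

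Between these, A_72_P284859 had ratios of -0.46, -0.13, -0.02 and -0.15, A_72_P644140 had -0.56, -0.15, -0.10 and -0.06, and A_72_P689016 had -0.40, -0.19, 0.17 and -0.37. Array 1 was the lowest for each of these, as it was for A_72_P567389 and A_72_P558469. Their fitted ratios were -0.19, -0.22 and -0.20, with limma adjusted p of 0.386, 0.343 and 0.431. The median of the 5 tested probes was -0.46, -0.19, -0.02 and -0.15 on arrays 1 to 4. Without replicate 1, accordingly, the fitted ratio of A_72_P567389 was -0.02 and that of A_72_P644140 was -0.10. Without replicate 3 they were -0.22 and -0.33.

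The sixth ATF4 probe, A_72_P601533, had its array 4 spot in the area with dim spots and was not tested. Its levels were 13.35, 13.17 and 13.70 in the pregnant gilts of arrays 1 to 3 and 6.32 on array 4, and 13.41, 13.34, 13.14 and then 6.49 in the cyclic gilts. Its ratios were -0.06, -0.17, 0.56 and -0.18. Array 3 had the highest ratio, as for each of the tested ATF4 probes but A_72_P644140.

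**Figure D3:**
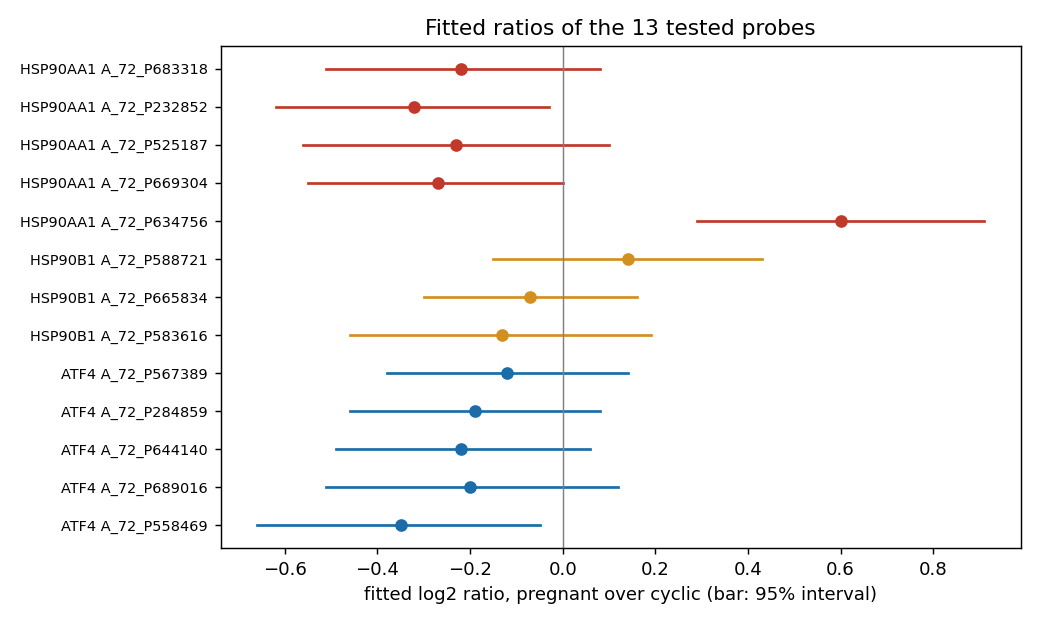
Fitted log2 ratio of pregnant over cyclic (points, horizontal axis) with its 95% interval (bars) for the 13 tested probes of HSP90AA1, HSP90B1 and ATF4. All intervals hold 0 except those of A_72_P232852 (-0.62 to -0.03), A_72_P634756 (0.29 to 0.91) and A_72_P558469 (-0.66 to -0.05), and no probe passed after adjustment over all probes. The interval of A_72_P634756 rests on 3 arrays, with array 3 fitted exactly, and holds no spread from that array.

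Compared on the 9 probes tested on 4 arrays, 5 were negative on all of them, against 11.3% of all such probes: A_72_P232852 and A_72_P669304 of HSP90AA1 and A_72_P284859, A_72_P644140 and A_72_P558469 of ATF4. Probes of the same gene read the same transcript on the same arrays, so these are not independent measurements. The SE of the 13 member probes ran from 0.0878 to 0.121, around the median of 0.0994 over all tested probes. Keeping spots with an outlier flag raised the member probes tested to 19 and those with an unadjusted p under 0.05 to 6, against 18.8% of all 23913 probes in that setting, with 0 passing and a smallest limma adjusted p of 0.215. Of these 6, all but A_72_P558469 of ATF4 were HSP90AA1 probes, and they went in opposite directions. A_72_P700356 (0.68) and A_72_P634756 (0.41) were higher, and A_72_P683318 (-0.21), A_72_P232852 (-0.32) and A_72_P525187 (-0.34) lower. Of the 80 member spots 19 (23.8%) had an outlier flag, 13 of 32 for HSP90B1, 6 of 24 for HSP90AA1 and 0 of 24 for ATF4. In 18 of these the flag was for uneven pixels in Cy5 only. Over all probe spots 4.65% were flagged, and 27.8% over the spots of the 6484 probes as bright as the member probes.

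Agreement between probes of 1 gene over the 8 gilts was described by the correlation of their levels after removal of each dye's mean. Both gilts of an array share a spot, which ties their levels. The median r was 0.93 for the 15 pairs of ATF4 probes (-0.84 to 0.98), 0.27 for the 28 pairs of HSP90B1 probes (-0.87 to 0.97) and -0.15 for the 15 pairs of HSP90AA1 probes (-0.95 to 0.92). Each of HSP90AA1 and ATF4 has 1 probe in the dim area of array 4. Without it, a setting added after the values were seen, the median r was 0.95 over 10 ATF4 pairs (0.88 to 0.98) and -0.74 over 10 HSP90AA1 pairs (-0.95 to 0.92).

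By the same measure, the named genes whose levels were most like those of HSP90B1 probe A_72_P588721 were ADSL (r = 0.95), CCR1 (0.93) and ATIC (0.92), of 1329 candidates. For ATF4 probe A_72_P567389 they were PSEN2 (0.99), WDTC1 (0.98) and MYO7A (0.97). For HSP90AA1 the brightest probe with spots on 4 arrays, A_72_P232852, was most like PPT2, ACTA2 and UGP2 (each 0.99), and for PPT2 and ACTA2 it shares the dim area of array 4. A_72_P669304, outside that area, was most like TNKS2 (0.95), DAZAP2 (0.94) and SGMS1 (0.94). These are the highest of many correlations over 8 gilts that share 4 arrays, and they describe these arrays only.

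Other genes of ER folding and the unfolded protein response had ratios on both sides of 0. Of 62 listed genes 13 were measured, 8 with a negative and 5 with a positive fitted ratio (61.5% negative; 56.2% of the 1744 named genes). None had an unadjusted p under 0.05 in limma, against 13.8% of named genes, and 0 passed after adjustment (smallest adjusted p = 0.305). The median was -0.05, against -0.02 over named genes, and the same -0.05 over the 11 genes other than HSP90B1 and ATF4. Without replicate 1 it was 0.03. The array medians were 0.03, 0, 0.04 and -0.11.

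Among the sensors' transcription factors, XBP1 had ratios of 0.05, 0, 0.06 and -0.51, near 0 on all arrays but the fourth, and a fitted ratio of -0.10 (limma adjusted p = 0.664). Whether the probe tells the spliced from the unspliced mRNA was not tested. ATF6B, a relative of the sensor ATF6, was at -0.13 ± 0.12, and DDIT3 (CHOP), a target of ATF4, at -0.09 ± 0.14 (fitted ratio ± SD over 4 arrays, limma adjusted p = 0.483 and 0.57). Neither passed the test.

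Chaperones and transport factors of the ER did not pass either. CALR, the calcium-binding lectin chaperone calreticulin, had ratios of -0.62, -0.06, 0.66 and -0.16, of opposite sign on arrays 1 and 3, and a fitted ratio of -0.05 (limma adjusted p = 0.931). ERO1A, the oxidase that drives disulfide bond formation, was at 0.19 ± 0.27 and SEC62, a translocation factor, at 0.09 ± 0.12 (limma adjusted p = 0.379 and 0.613). The array 4 spots of CALR and SEC62 lie in the dim area of array 4. Of the ER-associated degradation genes, VCP, the ATPase that extracts misfolded proteins, had -0.25, -0.31 and -0.18 on 3 arrays, and SELENOS, a membrane selenoprotein, -0.01, -0.10, -0.09 and -0.39. Both were negative on every array measured, and neither passed (fitted ratios -0.26 and -0.15, limma adjusted p = 0.305 and 0.429).

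Cytosolic and mitochondrial chaperones were likewise split. Of 70 listed genes 15 had probes by accession and 12 were measured, 7 negative and 5 positive (58.3% negative), with a median of -0.02 with or without HSP90AA1. An unadjusted p under 0.05 was found for 1 (8.33%, against 13.8% of named genes), and 0 passed. That gene was HSBP1, which binds the heat shock factor HSF1 and restrains it, with ratios of -0.75, -0.17, -0.63 and 0.07. Its fitted ratio was -0.37 ± 0.39 (unadjusted p = 0.00863, limma adjusted p = 0.235), with a dye effect of 0.32, and the larger negative values lay on the arrays with pregnant RNA in Cy3.

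The co-chaperones of HSP90 did not share a sign. CDC37, which brings kinases to HSP90, was at -0.14 ± 0.19, and PTGES3 (p23), which steadies its closed form, at 0.14 ± 0.11 (limma adjusted p = 0.402 and 0.425). HSPE1, the mitochondrial co-chaperonin, was negative on all 4 arrays, at -0.06, -0.15, -0.02 and -0.30, although 2 of its 3 tested probes had positive ratios. The small heat shock proteins HSPB1 and HSPB8 were at 0.12 ± 0.36 and -0.02 ± 0.30 over 3 arrays, and HSPA13, an HSP70 relative of microsomes, at 0.14 ± 0.37 over 3 arrays. None of these 4 passed (limma adjusted p = 0.41, 0.567, 0.937 and 0.737).

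**Figure D4:**
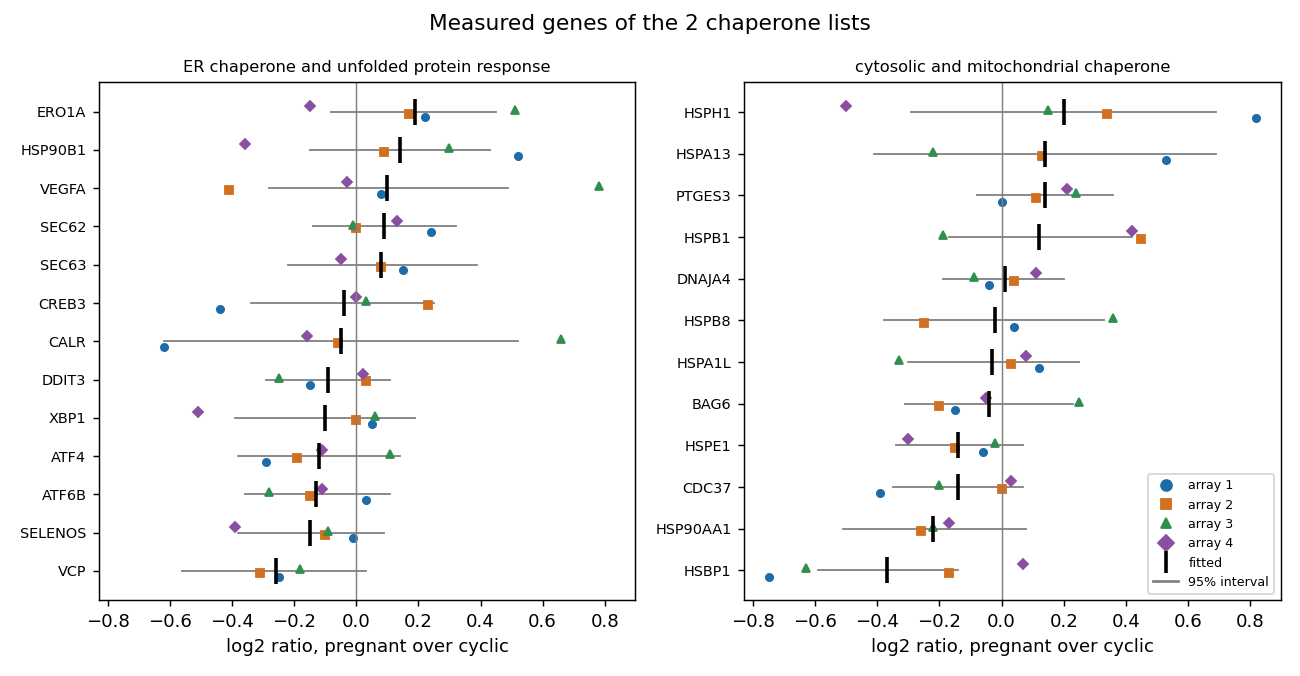
Log2 ratio of pregnant over cyclic (horizontal axis) for the 13 measured genes of the ER and unfolded protein response list (left) and the 12 of the cytosolic and mitochondrial chaperone list (right), by their brightest tested probe. Symbols are arrays, black ticks the fitted ratio and grey lines its 95% interval; the interval excludes 0 for HSBP1 alone (-0.59 to -0.14).

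The arrays share 1 slide and 1 scan. Between 47.5% and 71.8% of probe spots were well above background per array and dye, 0 were saturated, and the SD of the ratios was 0.581 on array 3 against 0.276 to 0.333 on the others. On array 4 an area of 4500 spots (9.95%) had lost 65.6% of its otherwise bright spots, against 0.345% outside it. The area was made of the blocks that had lost a share of at least 0.25 of such spots. A high loss inside it thus follows from that choice. Of 14 pituitary markers 13 were measured, PRL, GH1, POMC, CGA, LHB, FSHB and TSHB among them, with summed linear intensities of 723000 to 1290000 in pregnant and 934000 to 1430000 in cyclic gilts. Their median ratio was -0.07, and -0.55, 0.01, -0.15 and 0.27 on arrays 1 to 4. Array 1 was the lowest, as it was for the ATF4 median. The highest was array 4 for these markers and array 3 for ATF4. Stromal markers, 4 of 7 measured, had a median ratio of -0.33, with 3 negative and 1 positive. Their medians on arrays 1 to 4 were -0.26, -0.27, -0.46 and -0.22. Their summed intensities were 6670 to 9490 in pregnant and 7220 to 12600 in cyclic gilts. Handling-responsive genes, 5 of 10 measured, had a median of 0.28, with 2 negative and 3 positive, and sums of 18200 to 29300 and 15100 to 24900. Proliferation markers, 3 of 4 measured, had a median of -0.77, lowest on array 3 at -1.96, with sums of 350 to 490 and 457 to 1450. Endothelial markers, 3 of 6 measured, had a median of -0.23, with sums of 1800 to 2410 and 1920 to 2640, and ANXA1, the 1 measured of 3 folliculostellate markers, a ratio of -0.48 over 3 arrays, with intensities of 410 to 1570 and 698 to 1340. Neural and intermediate lobe markers, 3 of 7 measured, had a median of -0.02, with sums of 6060 to 9950 and 7630 to 9610. Myeloid markers, 4 of 6 measured, had a median of -0.13, with sums of 1420 to 2850 and 1640 to 2470. Lymphocyte markers, 3 of 5 measured, had a median of 0.04, with sums of 649 to 777 and 521 to 791. Of the erythrocyte markers 0 were measured. An unadjusted limma p under 0.05 was found for 4 of the 5 handling-responsive genes, 3 of 4 stromal markers and 3 of 13 pituitary markers. It was found for 1 of 3 endothelial and 1 of 3 lymphocyte markers, and for 0 of the other measured markers. The share was 13.8% over named genes, and 0 markers passed after adjustment. The part of these markers in the ratios above was not tested.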

How the data were processed

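The deposited scanner files were made with Agilent Feature Extraction 10.7.3.1 on array design 026440, per the file headers. They give Cy3 and Cy5 intensity (median spot and background signals), flags, processed signals and log10 ratios, per the file headers. The authors' value table, deposited with the series, holds log2 ratios, and its 4 columns had slopes of -1, 1, -1 and 1 against the processed Cy5 over Cy3 signals. It is thus turned to pregnant over cyclic by the labelled dyes, and with column medians of 0.07, -0.08, -0.18 and -0.17 it is not centred. No source used here names the software behind it. The labelling protocol can be read as pregnant in Cy3 on every array, against the per-sample labels, which were followed.

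Background was corrected by normexp (offset 50) on median signals, and each array was normalised by loess with control spots at weight 0. Outlier spots were removed and the spots of a probe averaged. Levels are channel values after loess and Aquantile scaling. Limma 3.58.1 in R 4.3.3 (lmFit, eBayes) fitted the ratio and a dye effect, with Benjamini-Hochberg adjustment over 21627 probes, of the 23913 above background. The fit was tested on simulated data. For a probe on 3 arrays, the array whose dye order occurs once has the most weight. Values after ± are SD over arrays, whose number limits the precision, and intervals are at 95%. A gene is represented by its brightest tested probe.

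Every member probe is named, and from each list the 5 brightest genes and the 5 with the smallest p, beside the 3 genes most like each member. Members and lists were chosen with earlier results of these data known. No probe, transcript or protein sequence and no coordinates were used here. Alternatives changed the background, scaling, dyes, model, filters, flags, value source and arrays.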

Additional observations from a re-analysis of the deposited data

Results flagged for a closer look

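In 6 of 47 sets of 4 values, 1 array stood far from the other 3 by Dixon's criterion, which chance meets in about 1 in 20 sets (2.35 here). HSP90AA1 probe A_72_P232852 had log2 levels of 12.85 in the pregnant and 12.94 in the cyclic gilt of array 4, far below the other 3 gilts of each group. ATF4 probe A_72_P601533 had 6.32 and 6.49 in the gilts of the same array. Both spots lie in the dim area of array 4. The ratio of A_72_P601533 stood apart on array 3, at 0.56, and the ratio of XBP1 on array 4, at -0.51.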

How the results depend on the processing

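No member probe passed after adjustment in the settings run, except A_72_P634756 (0.60) and A_72_P669304 (-0.38) of HSP90AA1 without replicate 1. The count of probes with an adjusted p under 0.05 was 0, and it was 1 with no background correction, 2 with no dye effect, 1046 in a separate-channel fit (19880 probes; intraspot correlation 0.797) and 0 to 3381 with 1 array left out (3381 without replicate 1, 4 without replicate 3). The unadjusted count of 3904 became 2555 with median centring, 1118 with the protocol's dyes and no dye effect (3097 with no dye effect alone), and 895 to 7061 with 1 array left out (895 without replicate 2, 2026 without replicate 4, 7061 without replicate 1). The cause was not tested.

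With median centring the ratio of HSP90AA1 became 0.12, ATF4 0.03, A_72_P583616 0.15, A_72_P665834 0.12, and the list medians 0.06 (ER) and 0.12 (cytosolic). With pregnant in Cy3 on every array and so no dye effect, which cannot then be fitted, HSP90AA1 became 0.07, ATF4 0.03, A_72_P232852 0.03, A_72_P558469 0.01, A_72_P583616 0.04 and A_72_P689016 0.08. The mean over tested probes was -0.09 for HSP90AA1 and -0.02 for HSP90B1. The median of the ER list ran from -0.09 to 0.03 with 1 array left out. The brightest HSP90AA1 probe has no value in the separate-channel fit or without replicates 2, 3 or 4, because of its flag. No alternative could be run for HSPA5 and HSPA8.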
